A study of Mus musculus with 63 samples.

Results

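RNA recovered with a nonspecific IgG was compared with the Input of the same RNA immunoprecipitation (RIP) experiment, to describe which RNAs such an antibody brings down by abundance, length and class. The comparison used the 2 libraries described as IgG and the 2 described as Input, 4 of the 63 samples of the series, over all 24990 rows of the gene table, of which 14906 held enough counts to be tested. The experiment was part of a study of the long noncoding RNA *Chaserr* and of its neighbour *Chd2*, which encodes a chromatin remodeller, and the 2 libraries made with the CHD2 antibody are given beside the IgG values where they help to read them. All 6 libraries were labelled Neuro2a, a mouse neuroblastoma line that grows as dividing neuroblasts, here cultured in serum without any genetic change or drug. The cells were lysed in a mild detergent buffer and sonicated, and the cleared lysate was rotated with antibody and then with beads. IgG and CHD2 libraries were made from RNA on the washed beads, and Input libraries from the lysate. The species and source of the IgG were not given in the sources used here, and either of 2 kinds of bead was used. All libraries were depleted of ribosomal RNA and were not selected for poly(A).

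In a RIP, an IgG without a target in the cell shows what sticks to beads, tubes and antibody constant regions. Any RNA can be carried over in this way, free or in a particle, and the IgG library is amplified from a small amount of it. Counts are relative within a library, so an RNA can be higher in IgG than in Input because more of it was retained or because less of the rest was. Fewer cells of a type and less RNA per cell cannot be told apart in such bulk samples. Nothing in the labels states that the libraries of a group came from separate cultures, and the p-values then measure only the spread between these libraries, which may be technical.

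The libraries labelled IgG held 20050508 and 11285159 expected counts, and those labelled Input held 13746554 and 16038165. Levels are given below as CPM, the count of a gene relative to all counts of its library after scaling between libraries, which compares libraries for 1 gene, and as TPM, which is also divided by transcript length and compares genes within a library. Across the tested rows, the rank correlation of log2 CPM was 0.934 between the IgG libraries and 0.976 between the Input libraries, against 0.835 between IgG and Input of replicate 1 and 0.912 of replicate 2. IgG replicate 1 thus stood further from Input than IgG replicate 2 did.

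Before the comparison itself, the tissue label was checked, and the data did not match it in full. Transcripts typical of adult brain were abundant in all 6 libraries and highest in IgG. *Camk2a*, which encodes a kinase of excitatory synapses, had 3390 and 2342 TPM in the IgG libraries, 710 and 524 in the Input libraries, 1804 and 1590 in the CHD2 libraries, and 982 to 1350 in the 3 WT brain libraries of the series. *Ttr*, the thyroxine carrier secreted by the choroid plexus, had 9643 and 6374 TPM in IgG, 1956 and 1376 in Input, and 1889 to 2954 in WT brain. In both genes, TPM in the IgG libraries was above that in the brain libraries. The brain libraries were selected for poly(A) and the RIP libraries were not, so TPM compares them only roughly. *Mbp*, a protein of the myelin sheath, had 2509 and 1909 TPM in IgG and 515 and 404 in Input, below the 4502 to 8974 of WT brain. *Gfap*, an intermediate filament of astrocytes, had 149 and 99.4 TPM in IgG and 31.2 and 21.3 in Input. Summed over the 10 glial markers, the level was 3585 and 2672 TPM in IgG, 768 and 614 in Input, and 8032 to 14132 in WT brain.

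The 22 markers listed for Neuro2a did not move one way. At an adjusted p under 0.05 by edgeR, 3 were higher in IgG and 4 lower, against 14.3% and 10.3% of all tested rows, and the median log2 fold change was -0.47. *Stmn2*, *Nefl* and *Nefm*, which encode proteins of growing and mature axons, were higher at 1.80, 1.74 and 1.65, and the 4 that were lower included *Gata2*, *Prph* and *Hand2* at -2.77, -2.58 and -2.15. The other 15 were not called, among them *Gap43* at 0.82, *Mapt* at 0.78, *Uchl1* at 0.29, *Tubb3* at -0.61 and *Chga* at -0.77. *Hand2*, a transcription factor of sympathetic neuroblasts, was at 0 TPM in the 3 WT brain libraries, and had 248 and 265 TPM in Input, 204 and 205 with the CHD2 antibody, and 21.4 and 131 in IgG. *Phox2a*, which specifies noradrenergic neurons and was not called, had 379 and 382 TPM in Input against 15.4 and 168 in IgG. *Prph*, an intermediate filament of peripheral neurons, had 732 and 770 TPM in Input against 38.5 and 293 in IgG. For each of these genes both IgG libraries lay below both Input libraries, and IgG replicate 1 lay far below IgG replicate 2. Across the tested rows, the rank correlation with the mean TPM of WT brain was 0.874 and 0.813 for the IgG libraries, 0.708 and 0.661 for the Input libraries, and 0.715 and 0.685 for the CHD2 libraries. This is a correlation across genes, which share base composition and length and are not independent replicates. Where the brain transcripts came from was not tested, and their values stand beside each group of genes below.

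**Figure D1:**
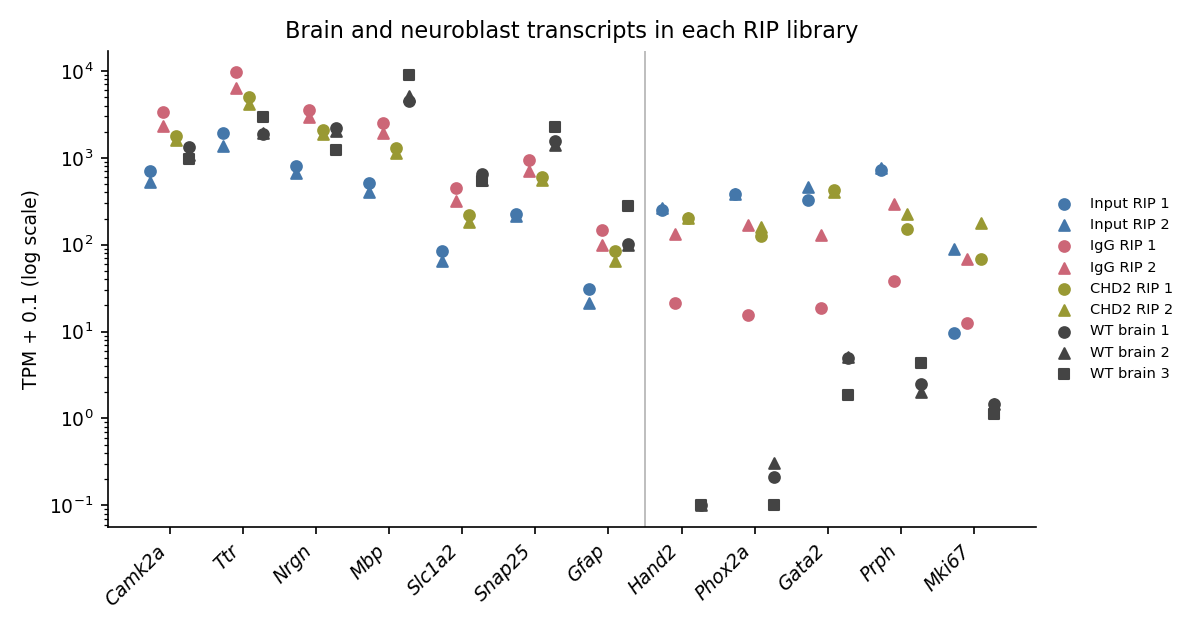
TPM (0.1 added, log scale) of brain transcripts (left of the line) and neuroblast or proliferation transcripts (right) in each Input, IgG and CHD2 RIP library and in the 3 WT brain libraries, with circle, triangle and square for replicates 1, 2 and 3. Among the RIP libraries, the left-hand transcripts were highest in IgG, and *Hand2*, *Phox2a*, *Gata2* and *Prph* were lowest in IgG replicate 1.

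In the comparison of IgG with Input, 2134 of 14906 tested rows (14.3%) were higher in IgG and 1537 (10.3%) were lower, at an adjusted p under 0.05 by edgeR's quasi-likelihood test. The lowest adjusted p was 0.0211, shared by 906 rows, so that adjusted p-values hardly rank the genes and the fold changes are the better guide. The count rests on the Input libraries and on the spread taken from all 6 libraries. Without Input replicate 2, 0 rows were higher and 16 were lower (1962 and 1946 at an unadjusted p under 0.05), all 16 of them histones. Without Input replicate 1 the counts were 930 and 1065, without IgG replicate 1 they were 1620 and 1012, without IgG replicate 2 they were 3194 and 3870, and without CHD2 replicates 1 and 2 they were 1011 and 668, and 1195 and 824. With the replicate number as a block the counts were 2779 and 2686. In the fits without a library, the group with 1 library left was assumed to vary like the others. The median log2 fold change of all tested rows was -0.04, and total-count scaling moved it to 0.07. With that scaling 2557 rows were higher and 1053 lower, so the share of calls that were higher depended on the scaling.

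Expression in brain separated the higher from the lower genes. Rows were grouped by the log2 ratio of TPM in WT brain to TPM in WT mouse embryonic fibroblasts (mEFs). Both came from poly(A) libraries of the same series that did not enter the comparison. The mEF libraries were those labelled as from the same pregnancy as the *Chaserr* heterozygous mEFs, and the other WT mEF libraries were not used. The median log2 fold change of IgG over Input climbed from -1.35 in the 467 rows with a ratio under -3, through -0.96, -0.38 and 0.47, to 1.59 in the 1783 rows with a ratio of 3 or more. In this last group 1092 rows (61.2%) were higher in IgG and 17 (0.953%) were lower. Its median was 1.48 within replicate 1 and 1.60 within replicate 2. In the group with a ratio under -3, the medians were -2.18 and -0.87, further from 0 in replicate 1. Of all rows higher in IgG, 79.0% had a brain level at least 2 times that of mEFs, a property of 38.1% of all tested rows and of 8.78% of the rows lower in IgG.

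**Figure D2:**
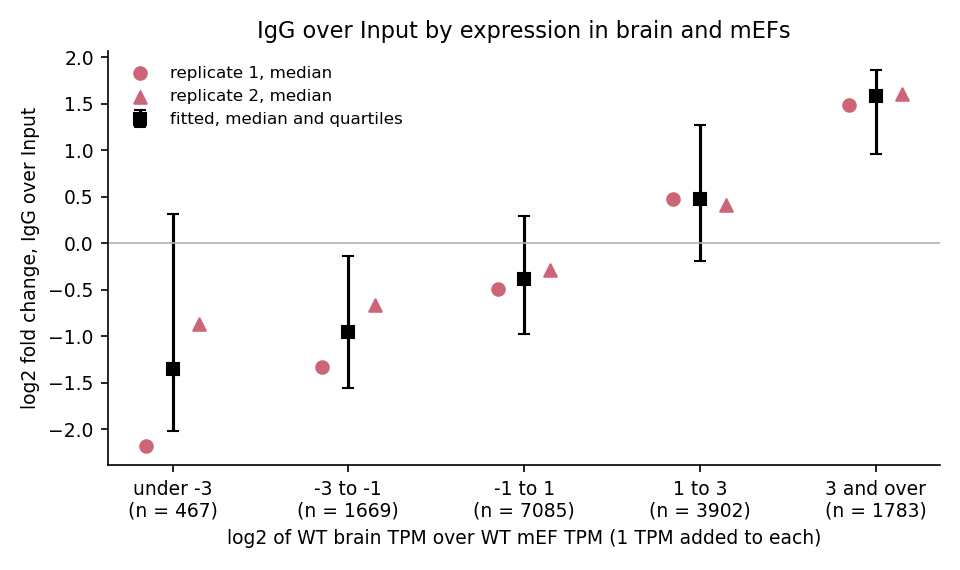
Median log2 fold change of IgG over Input (squares, bars from the lower to the upper quartile of genes) against the log2 ratio of WT brain TPM to WT mEF TPM in 5 bins, with the medians within replicate 1 (circles) and replicate 2 (triangles). The median climbed from -1.35 to 1.59, and the replicates were closest in the bins at 1 and above.

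A narrower group had at least 50 TPM in each WT brain and under 0.5 TPM in each WT mEF library of that pregnancy. It held 154 rows, of which 153 were tested. Of these, 128 (83.7%, against 14.3% of all tested rows) were higher in IgG and 1 (0.654%, against 10.3%) was lower. Without Input replicate 2, 0 of them passed, and without any 1 of the other 5 libraries 88 to 137 did. Their log2 fold changes lay close together, with a median of 1.73 and quartiles of 1.38 and 1.86. Within replicates the median fold was 3.05 and 3.59. *Slc1a2*, the main glutamate transporter of astrocytes, had 2300 and 1573 CPM in IgG against 621 and 365 in Input (log2 fold change 1.97, SE 0.39, adjusted p = 0.0211). *Slc17a7*, the vesicular glutamate transporter of cortical neurons, had 1483 and 1070 CPM in IgG against 452 and 247 in Input. A glial and a neuronal transcript were thus higher in IgG by a like factor, 1.97 and 1.87 on the log2 scale. The 1 row called lower was *Nefh*, the heavy neurofilament, with mean levels of 155 CPM in IgG and 439 in Input (log2 fold change -1.51, adjusted p = 0.0414 by edgeR). Summed TPM of the 154 rows was 24707 and 19212 in IgG and 7200 and 6389 in Input. It was 14886 and 13525 with the CHD2 antibody and 24474 to 26117 in WT brain. IgG replicate 1 thus lay within the range of the brain libraries, which unlike it were selected for poly(A).

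The converse group was under 0.5 TPM in each WT brain and at least 5 TPM in both CHD2 libraries, and held 175 rows, of which 143 were tested. Of these, 34 were lower in IgG (23.8%, against 10.3% of all tested rows) and 2 were higher. Their median log2 fold change was -1.87, and the replicates were far apart, with a median of -3.59 within replicate 1 and -1.07 within replicate 2, the latter a 2.09-fold lower level in IgG than in Input. Besides *Hand2* (log2 fold change -2.15, SE 0.66, adjusted p = 0.0454), the rows that fell included *Nkx2-5*, a cardiac homeobox factor, at -2.49, and 12 histones. *Phox2a* was at -2.47 and *Gata4*, an endodermal and cardiac GATA factor, at -2.82, both short of the threshold (adjusted p = 0.0583 and 0.0667 by edgeR). The 2 rows that were higher included *Tas2r143*, a bitter taste receptor. The WT brain libraries were selected for poly(A), so an RNA without a tail, such as a histone mRNA, can be low in them for that reason. Without the histones, 22 of 130 tested rows were lower and the median was -1.82.

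Markers of other cell types were higher in IgG as well. By edgeR, as in the other lists, 0 genes of a marker list of other cell types were lower, and 0 at an unadjusted p under 0.05 or by DESeq2. A marker low in Input could pass the filter on counts through its IgG or CHD2 libraries alone, which favours a fold change above 0 in these lists. All 15 tested macrophage markers of 17 had positive log2 fold changes, with a median of 1.81. Of these, 10 (66.7%, against 14.3% of all tested rows) were past the threshold and 0 were lower (against 10.3%). *Csf1r*, the receptor that macrophages and microglia depend on, had 151 and 85.4 CPM in IgG and 38.8 and 22.1 in Input (log2 fold change 1.96, SE 0.39, adjusted p = 0.0211). *C1qb*, a complement subunit made by microglia, had 114 and 64.4 CPM in IgG and 31.0 and 19.8 in Input. Summed over the 17 markers, the level was 1289 and 965 TPM in IgG, 248 and 203 in Input, and 764 to 959 in WT brain. Of the 10 glial markers 9 were higher (90%) and 0 lower, with a median of 1.86. Of 9 tested fibroblast markers of 10, 3 were higher (33.3%) and 0 lower, with a median of 2.03. The 3 were *Thy1*, which neurons also make, and the type I collagen chains *Col1a1* and *Col1a2*. *Thy1* itself was at 2.03, and *Col1a1* had 26.2 and 17.7 CPM in IgG against 10.1 and 5.8 in Input. *Dcn* at 0.61 and *Pdgfra*, which shares its row with *Mir7025*, at 0.46 were not called. The other tested markers of this list had few counts in Input. *Postn*, for one, had 2.63 and 1.37 CPM in IgG and 0.235 and 0.0589 in Input.

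**Figure D3:**
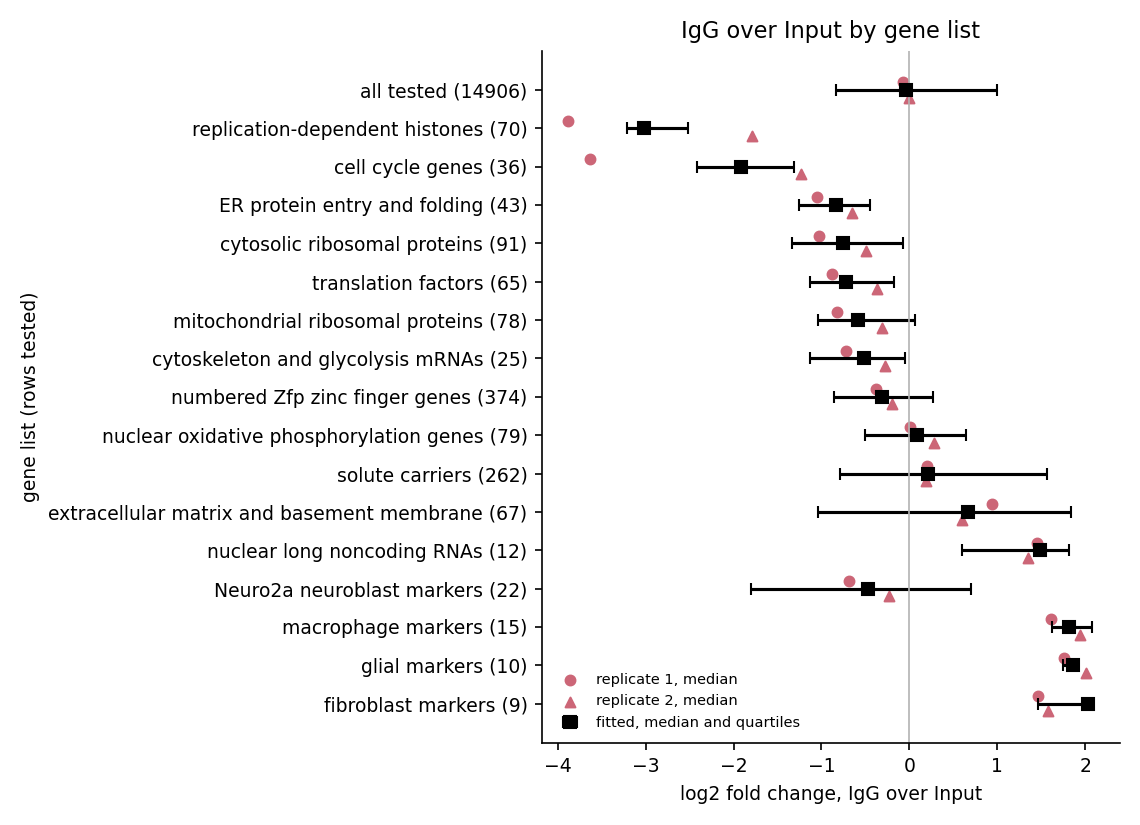
Median log2 fold change of IgG over Input for all tested rows and for 16 gene lists (squares, bars between the quartiles of the list, number of rows tested in brackets), with the medians within replicate 1 (circles) and replicate 2 (triangles). Histones and cell cycle genes lay lowest, at -3.02 and -1.91 with a wide gap between replicates, and fibroblast, glial and macrophage markers highest of the lists drawn, at 2.03, 1.86 and 1.81. Markers low in Input could pass the filter on counts through IgG or CHD2 libraries alone, which favours a high median.

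Of the lists described here, histones had the lowest median. Replication-dependent histone mRNAs encode the proteins that package the DNA made in S phase, and end in a stem-loop bound by a dedicated protein in place of a poly(A) tail. The stem-loop is shown here because it is the part of the RNA that sets this group apart. In the 100 bases after the stop codon, a stem of 6 paired bases that starts with GG and ends with CC around a loop of 4 bases was searched on the coding strand, and was found in 59 of 62 histone rows located in the mm9 genome (95.2%) and in 77 of 19386 other coding rows (0.397%). One gene of each histone type is printed from the NCBIM37 (mm9) genome, 5′ to 3′, with the stem-loop in capitals:
H1f2 (chr13:23831376-23831401, + strand): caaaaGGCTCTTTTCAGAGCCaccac
H2ac20 (chr3:96024336-96024361, - strand): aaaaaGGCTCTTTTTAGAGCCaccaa
H2bc13 (chr13:21807582-21807607, - strand): tcaaaGGCTCTTTTAAGAGCCaccca
H3c2 (chr13:23844684-23844709, + strand): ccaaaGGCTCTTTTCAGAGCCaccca
H4c4 (chr13:23673814-23673839, + strand): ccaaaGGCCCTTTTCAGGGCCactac
The form shown for *H3c2* was the commonest, in 33 of the histone genes. The 3 histone rows without a match had log2 fold changes with a median of -2.77, near that of the 54 tested rows with one (-3.05), and the other coding rows with a match had a median of 0.21.

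Of the 75 histone rows 70 were tested. By edgeR, 59 of them were lower in IgG (84.3%, against 10.3% of all tested rows). By the same test 0 were higher, against 14.3% of all tested rows (0 also at an unadjusted p under 0.05 and by DESeq2). Without Input replicate 2, 16 were lower, and without any 1 of the other 5 libraries 46 to 64 were. In 68 of the 70, both IgG libraries lay below both Input libraries. *H3c2*, an H3 gene of the main cluster, had 79.2 and 241 CPM in IgG, 2744 and 1161 in Input, and 133 and 231 with the CHD2 antibody (log2 fold change of IgG over Input -3.61, SE 0.65, adjusted p = 0.0211). *H2bc15* had 45.4 and 110 CPM in IgG against 1543 and 757 in Input, a 14.8-fold difference. *H1f2*, a linker histone, had 30.3 and 109 CPM in IgG against 984 and 510 in Input (-3.42). In each of these genes both IgG libraries lay below both Input libraries, but the libraries of a group also differed. IgG replicate 2 held more of each of these mRNAs than IgG replicate 1, and Input replicate 1 more than Input replicate 2. The median was -3.88 within replicate 1 and -1.79 within replicate 2. By type, the medians ran from -2.60 for H4 to -3.15 for H2A, and the members called lower were 5 of 5 for H1, 17 of 19 for H2A, 12 of 18 for H2B, 12 of 12 for H3 and 12 of 15 for H4.

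As a share of all counts, histones made up 0.251% and 0.421% of the IgG libraries, 2.86% and 1.45% of the Input libraries, and 0.476% and 0.355% of the CHD2 libraries. The shares in IgG and CHD2 thus overlapped and lay below those of both Input libraries. The median log2 fold change of the histone rows was 0.62 for CHD2 over IgG, against 0.02 for all tested rows. These comparisons share the IgG libraries. Histone genes are close copies of each other, and rows of near-identical genes such as *H2ac24* and the joined row of *H2ac24* and *H2ac23* may share reads, so that the number of rows overstates the number of separate measurements. Histone variants that are made outside S phase as polyadenylated mRNAs, chosen after their values were seen, had log2 fold changes from -2.07 to 1.61. *H3f3b* was lower in IgG (149 and 217 CPM against 620 and 546, log2 fold change -1.67, adjusted p = 0.0211 by edgeR), *H1f0* was lower (149 and 441 against 1247 and 1234, -2.07), and *H2az1* was lower (-1.15). *H3f3a* was at -0.72 and short of the threshold (adjusted p = 0.108 by edgeR), and *Macroh2a2* was higher at 1.61. *Macroh2a1* at -0.85 and *H2az2* at 0.33 were not called. *H3f3a* encodes the same H3.3 protein as *H3f3b*.

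**Figure D4:**
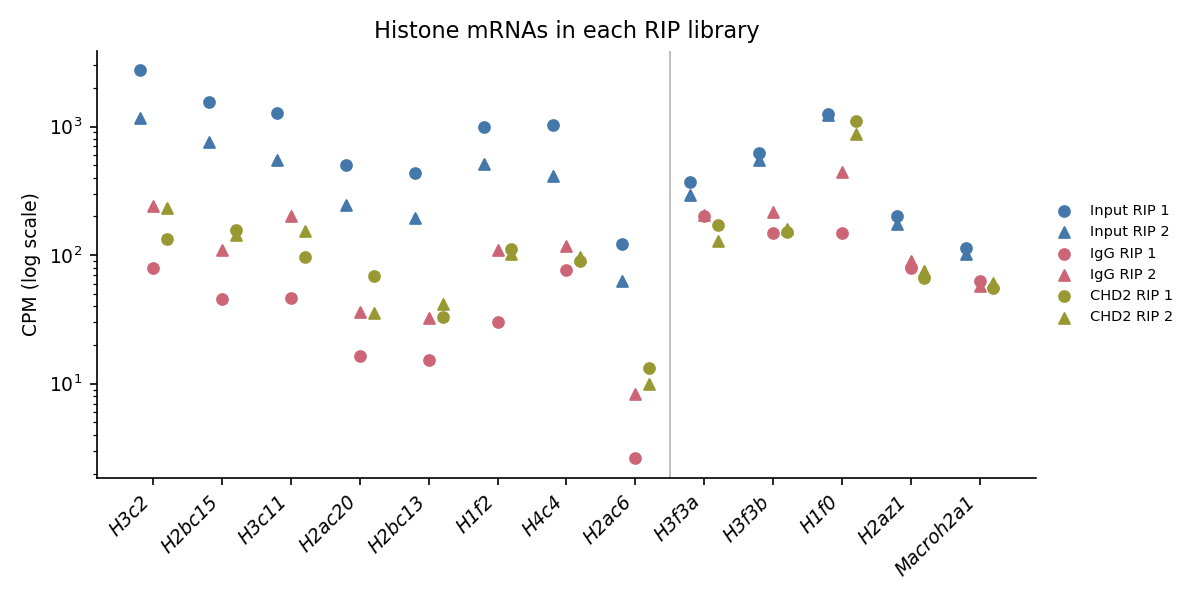
Scaled CPM (log scale) of 8 replication-dependent histone genes (left of the line) and of the variant genes *H3f3a*, *H3f3b*, *H1f0*, *H2az1* and *Macroh2a1* (right) in the Input, IgG and CHD2 RIP libraries, with circles for replicate 1 and triangles for replicate 2. In all 8 genes on the left, both Input libraries lay above the 4 immunoprecipitates, as they did in the 5 variant genes drawn.

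Genes of dividing cells were lower in IgG too. Of 36 cell cycle genes 13 were lower (36.1%, against 10.3% of all tested rows) and 0 higher by edgeR, also 0 higher at an unadjusted p under 0.05 and by DESeq2, with a median of -1.91, which was -3.63 within replicate 1 and -1.23 within replicate 2. Replication licensing factors were among them, with *Mcm2*, *Mcm3*, *Mcm5* and *Mcm7* at -2.46, -2.61, -2.47 and -2.23. So were the mitotic kinases *Plk1* (-2.84), *Cdk1* (-2.56) and *Aurkb* (-2.41). *Mcm2* had 11.3 and 85.9 CPM in IgG and 288 and 247 in Input. *Mki67*, a coat protein of mitotic chromosomes with a long mRNA, had 63.4 and 322 CPM in IgG and 69.8 and 469 in Input, overlapping values that differed between replicate numbers more than between groups (-0.48, SE 0.92). Summed TPM of the 36 genes was 317 and 1605 in IgG, 2590 and 3495 in Input, and 229 to 238 in WT brain. *Cdkn2a*, which encodes the inhibitors p16 and p19ARF, was among the 10 largest falls, with 0.05 and 2.75 CPM in IgG and 24.2 and 20.3 in Input.

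The abundant mRNAs of the translation machinery were lower in IgG more often than higher. Of 91 tested mRNAs for cytosolic ribosomal proteins 33 were lower (36.3%, against 10.3% of all tested rows) and 1 was higher (*Rps29*), with a median of -0.76. *Rps2*, of the small subunit, had 986 and 1594 CPM in IgG and 6027 and 3682 in Input (log2 fold change -1.91, SE 0.42, adjusted p = 0.0213), so that both IgG libraries lay below both Input libraries. *Rpl41* had 1357 and 1363 CPM in IgG and 3095 and 1777 in Input, and missed the threshold (-0.84, adjusted p = 0.114 by edgeR). Many ribosomal protein genes have processed pseudogenes, and their values are uncertain where reads can be shared. The list took 2.69% and 3.12% of counts in IgG, 6.68% and 4.87% in Input, and 1.78% and 1.85% with the CHD2 antibody.

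The same direction was seen for 65 translation factors (19 or 29.2% lower, 3 higher, median -0.72), 78 mitochondrial ribosomal proteins (16 or 20.5% lower, 1 higher, median -0.59) and 43 genes of protein entry and folding in the endoplasmic reticulum (10 or 23.3% lower, 1 higher, median -0.84), against 10.3% lower and 14.3% higher of all tested rows. *Eef2*, the translocase of elongation, had 1841 and 1909 CPM in IgG and 5144 and 3239 in Input (-1.16, adjusted p = 0.0441 by edgeR). *Eef1a2*, the form of elongation factor 1A made in neurons and muscle, had 1669 and 1067 CPM in IgG and 906 and 533 in Input (0.93, adjusted p = 0.103 by edgeR), whereas *Eef1a1*, the form of other cells, had 3512 and 3696 against 9444 and 6301 (-1.13, adjusted p = 0.0505 by edgeR). Neither passed, and in both genes the IgG and Input libraries did not overlap. *Hspa5*, the endoplasmic reticulum chaperone, was at -1.34 and *P4hb*, a disulfide isomerase, at -1.87. Nuclear genes of oxidative phosphorylation were divided. Of 79 tested, 7 were higher (8.86%) and 4 lower (5.06%), both shares below those of all tested rows, with a median of 0.08, and their median brain to mEF ratio was 1.03 against -1.33 for cytosolic ribosomal proteins.

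Among mRNAs often used as references, *Actb*, cytoplasmic actin, was lower in IgG with 3737 and 5831 CPM against 17334 and 11999 in Input, a 3.07-fold difference (log2 fold change -1.62, SE 0.40, adjusted p = 0.0263). *Tuba1b*, an alpha tubulin of dividing cells, had 3047 and 3966 CPM in IgG and 11921 and 9112 in Input (-1.58). *Gapdh*, a glycolytic enzyme, had 8420 and 6185 CPM in IgG and 9618 and 5711 in Input, and did not separate the groups (-0.07, SE 0.39). *Vim*, the intermediate filament of mesenchymal and progenitor cells, was at -2.36 and *Tmsb4x*, an actin-binding peptide, at 1.69. The 25 genes of the cytoskeleton and glycolysis list had 7 lower (28%, against 10.3% of all tested rows) and 1 higher (4%, against 14.3%). *Gapdh* and *Actb* thus gave different accounts of the same libraries.

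The 10 rows highest in IgG held 1 noncoding row and 9 mRNAs. The noncoding row, gene 100861531, 5833 nt long and without a symbol in the table used, had 39656 and 27205 CPM in IgG and 12458 and 7051 in Input (log2 fold change 1.78, SE 0.47, adjusted p = 0.0292). It took 4.13% and 2.98% of all IgG counts, 1.16% and 0.746% of Input counts, and 2.46% and 1.47% of CHD2 counts. It was followed by *Gapdh*, *Camk2a* and *Cst3*, a secreted protease inhibitor abundant in glia and choroid plexus, with 7466 and 4113 CPM in IgG and 2419 and 1354 in Input (1.62). *Actb*, *Fth1*, *Actg1*, *Aldoa*, *Ttr* and *Ubb* completed the list. *Camk2a*, *Cst3*, *Ttr* and the noncoding row were higher in IgG than in Input, *Actb* was lower, and the other 5 were not called.

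The largest rises were mostly of genes with few counts in Input. *Rnaset2b*, a secreted ribonuclease with a near-identical copy that can split its reads, had 18.7 and 16.2 CPM in IgG and 1.96 and 0 in Input, where 0 counts allow up to 0.187 CPM in that library. *Xist*, described below, came second at 3.19. The other 8 were *Cdkl2*, *Slc27a2*, *Fbxo27*, *Hunk*, *Slc9a9*, *Ephx2*, *Kcnip1* and *Ltc4s*, with log2 fold changes from 2.72 to 3.10 and a mean of at most 24.0 CPM in IgG. *Ephx2*, the soluble epoxide hydrolase, had 12.6 and 14.1 CPM in IgG and 2.43 and 1.41 in Input. *Kcnip1*, a subunit of neuronal potassium channels, had 18.7 and 14.1 CPM in IgG and 2.75 and 2.12 in Input. Of the 10 largest falls, 6 were histones. The others were *Cdkn2a*, *Bco1*, a carotenoid-cleaving enzyme, at 0.38 and 0.65 CPM in IgG and 9.81 and 10.6 in Input, and 2 rows of the duplicated genes *Dmrtc1c1* and *Dmrtc1c2*, whose reads cannot be assigned with certainty.

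By RNA class, noncoding rows had a higher median than coding rows but were called less often. The 674 tested noncoding rows of 3916 had a median log2 fold change of 0.50, against -0.05 for 13607 coding rows, with 68 higher (10.1%) and 34 lower (5.04%). Of the coding rows 14.7% were higher and 10.6% lower. Within replicates the noncoding median was 0.13 and 0.47. Their median brain to mEF ratio was 0.74, against 0.54 for coding rows. Among rows whose brain and mEF levels lay within 2-fold of each other, the difference between the classes was 0.23 in place of 0.55. Noncoding rows took 5.05% and 4.03% of counts in IgG, 2.03% and 1.70% in Input, and 5.62% and 3.96% with the CHD2 antibody. Most of the IgG share, and nearly all of its excess over Input, was the single row without a symbol. That row alone took 4.13% and 2.98% of counts in IgG and 1.16% and 0.746% in Input.

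Nuclear long noncoding RNAs were higher in IgG in 7 of 12 rows (58.3%, against 14.3% of all tested rows), with a median of 1.49. By edgeR 0 were lower, against 10.3% of all tested rows, and 0 at an unadjusted p under 0.05 or by DESeq2. *Meg3*, an imprinted RNA abundant in neurons, which shares its row with *Mir770* and the *Mir1906* precursors, had 1928 and 1308 CPM in IgG, 567 and 325 in Input, and 851 and 734 with the CHD2 antibody (log2 fold change of IgG over Input 1.86, SE 0.39, adjusted p = 0.0211). *Snhg11* (1.89), *Miat* (1.79) and *Rian* (1.66), also RNAs of neurons, were higher by about the factor of the brain mRNAs. The row of *Snhg11* held NM accessions only, so it was counted with the coding rows by class. *Xist*, which coats the inactive X chromosome, had 400 and 928 CPM in IgG, 43.8 and 101 in Input, and 3397 and 3587 with the CHD2 antibody. In WT brain libraries 1 to 3, *Xist* had 229, 0.02 and 0.03 TPM. Its IgG libraries did not overlap with Input, and its log2 fold change of 3.19 (SE 0.55, adjusted p = 0.0211) was above the upper quartile of the brain genes, 1.86. *Kcnq1ot1*, an imprinted RNA that stays at its locus, had 35.1 and 59.7 CPM in IgG and 8.6 and 20.9 in Input (1.68).

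Other nuclear RNAs with high levels in the CHD2 libraries were not called in IgG over Input. *Malat1*, the abundant RNA of nuclear speckles, had 247 and 513 CPM in IgG, 408 and 997 in Input, and 12435 and 7522 with the CHD2 antibody. Its IgG and Input libraries overlapped (-0.89, adjusted p = 0.235 by edgeR). *Neat1*, the scaffold of paraspeckles, had 38.6 and 51.1 CPM in IgG, 17.4 and 42.1 in Input, and 869 and 1096 with the CHD2 antibody (0.59 for IgG over Input, adjusted p = 0.319 by edgeR). It was above Input within each replicate number, and the groups overlapped. *Pvt1*, another long noncoding RNA of the list, had 29.0 and 30.2 CPM in IgG, 18.7 and 20.3 in Input, and 81.8 and 65.4 with the CHD2 antibody, and its IgG and Input libraries did not overlap (0.60, adjusted p = 0.137 by edgeR). *Chaserr* had 0.9 and 0 CPM in IgG, where 0 counts allow up to 0.266, 0.9 and 1.4 in Input, and 5.9 and 2.6 with the CHD2 antibody, and such counts cannot show a difference between IgG and Input (-1.25, SE 1.19). *Chd2* had 18.5 and 20.9 CPM in IgG, 21.7 and 25.7 in Input, and 81.6 and 78.4 with the CHD2 antibody (-0.27 for IgG over Input, adjusted p = 0.48 by edgeR). The table counts reads on mature transcripts, so RNA recovered as introns is not seen here.

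Small structural RNAs were poorly covered. Of 120 snoRNA and scaRNA rows 1 was tested, and of 1230 microRNA rows 7 were tested, most of them longer host transcripts. Of 10 abundant structural RNAs 4 were tested, and 0 were called by edgeR, 0 at an unadjusted p under 0.05 and 0 by DESeq2. *Rmrp*, the RNA of the RNase MRP particle, had 276 and 213 CPM in IgG and 544 and 444 in Input (-1.01, SE 0.52, adjusted p = 0.167). *Rpph1*, the RNA of RNase P, had 460 and 138 CPM in IgG, 660 and 334 in Input, and 53.7 and 69.3 with the CHD2 antibody (-0.73, adjusted p = 0.332 by edgeR). IgG lay below Input for *Rmrp* in both libraries, and overlapped with it for *Rpph1*. The host RNA of *Mir124a-1*, whose mature microRNA is specific to neurons, was higher in IgG (186 and 116 CPM against 51.5 and 26.6, 1.95). It was among 4 of the 7 tested microRNA rows that were higher (57.1%, against 14.3% of all tested rows). Of 20 long RNAs that host snoRNAs, 1 was higher (*Snhg5*) and 0 were lower by edgeR (1 at an unadjusted p under 0.05, 0 by DESeq2), with a median of -0.16.

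By abundance, the ratio of IgG to Input fell as the level in Input rose. The counts were about as concentrated in both groups. The 100 most abundant rows of each library took 23.9% and 20.4% of counts in IgG and 23.8% and 20.6% in Input. To keep a library out of both axes, rows were grouped by their CPM in one Input library and the ratio was taken within the other replicate number. From rows under 1 CPM to rows of at least 300 CPM, the median log2 ratio of IgG to Input went from 1.25 to -1.27 in replicate 1 and from 1.04 to -0.65 in replicate 2, and fell at each step in both. The median of rows at 100 CPM or more minus that of rows under 3 CPM was -1.86 in replicate 1 and -1.25 in replicate 2. The median brain to mEF ratio moved with abundance, from 0.73 in the lowest group to -0.26 in the highest of replicate 1. Among rows with brain and mEF levels within 2-fold of each other, the mean of these differences was -1.09 in place of -1.56. Rows near 1 CPM rest on few counts, and a row low in one Input library tends to be low in the other by chance as well as in truth, which the grouping does not remove in full. A row low in Input could also pass the filter on counts through its IgG or CHD2 libraries alone, which favours a ratio above 0 in the lowest groups. With at least 10 counts in every library, the mean of the differences was -1.76.

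By length, the pattern was weaker and did not hold in both replicates. The median log2 fold change was -0.40 in 154 rows under 0.5 kb and 0.22 in 619 rows of 8 kb and over, with values between -0.18 and 0.08 for the groups between. The share of rows called higher went from 8.44% to 23.7%, and that called lower from 28.6% to 1.94%. Most of the 44 rows under 0.5 kb that were lower in IgG were replication-dependent histones. Rows over 4 kb lay 0.16 above rows under 1 kb. This difference was 0.37 within replicate 1 and -0.06 within replicate 2, and it was -0.22 without Input replicate 1, so that its direction turned with the libraries. Histone rows had a median length of 482 nt and reached 2983 nt. Zinc finger genes, whose list of 374 tested rows stood at -0.31 with 16 higher (4.28%) and 19 lower (5.08%), had a median of 1.10 for CHD2 over IgG.

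**Figure D5:**
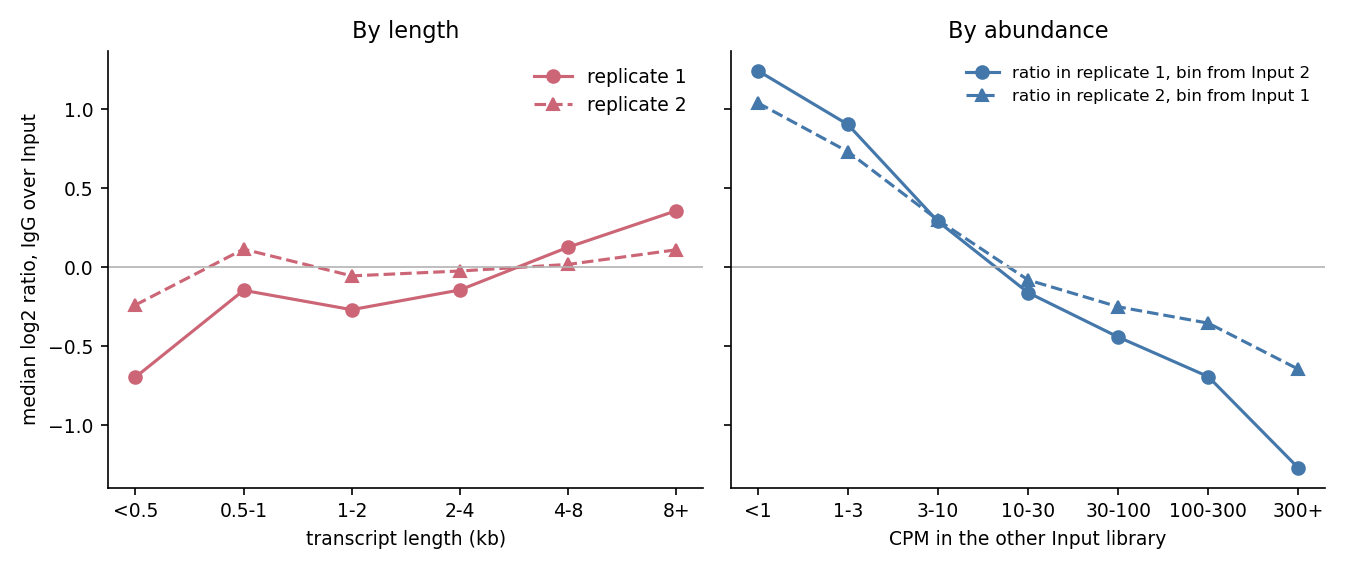
Median log2 ratio of IgG to Input by transcript length in kb (left) and by CPM in the Input library of the other replicate number (right), with circles and full lines for replicate 1 and triangles and dashed lines for replicate 2. The fall with abundance held in both replicates, from 1.25 to -1.27 and from 1.04 to -0.65, and the rise with length was clear in replicate 1 only.

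Transporters and matrix genes gave mixed groups. Of 262 tested solute carriers 56 were higher (21.4%, against 14.3% of all tested rows) and 26 lower (9.92%, against 10.3%), with a median of 0.21. *Slc25a23*, a mitochondrial carrier, was higher (1089 and 806 CPM against 453 and 348, 1.24), and *Slc7a5*, the amino acid exchanger of dividing cells, was lower (149 and 508 against 1329 and 1240, -1.97). Of 67 tested matrix genes 10 were higher (14.9%, near the 14.3% of all tested rows) and 0 lower by edgeR, with a median of 0.66, although 13 were lower at an unadjusted p under 0.05 and 7 lower by DESeq2. The most abundant of them overlapped or missed the threshold. *Fn1*, fibronectin, had 224 and 1521 CPM in IgG and 1075 and 2506 in Input, with 1 IgG library above 1 Input library (-1.04, SE 0.81). *Col4a2*, a basement membrane collagen, had 75.3 and 552 CPM in IgG and 630 and 1354 in Input (-1.66, adjusted p = 0.191 by edgeR). Both differed between replicate numbers in IgG and Input alike.

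The CHD2 libraries are given beside these comparisons for the rows called in IgG over Input. In CHD2 over IgG, 1651 of 14906 rows (11.1%) were higher and 56 (0.376%) lower. Of the 2134 rows higher in IgG than in Input, 23 were higher and 31 lower with the CHD2 antibody than in IgG, and their median log2 fold change was -0.92 for CHD2 over IgG and 0.86 for CHD2 over Input. Of the 1537 rows lower in IgG than in Input, 251 were higher and 0 lower with the CHD2 antibody than in IgG, with a median of 0.56. *Camk2a* had 3771 and 3256 CPM with the CHD2 antibody, between IgG (8450 and 5305) and Input (2487 and 1336). Over all tested rows the medians were 0.02 for CHD2 over IgG and 0.32 for CHD2 over Input. The rows were chosen on the IgG and Input libraries that also enter these comparisons, which by itself favours a CHD2 level between them, so the values stand side by side as a description.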

How the data were processed

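RIP-seq libraries labelled Neuro2a were analysed: 2 with IgG, 2 of Input and 2 with a CHD2 antibody. The authors depleted ribosomal RNA, read paired ends and ran RSEM on RefSeq transcripts (mm9), and the deposited table of each library gives per row its expected count, TPM and FPKM, without normalization between libraries. Reads in introns, which the authors counted for the RIP by another method, are not in these tables. FPKM values were not analysed.

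Expected counts were rounded and fitted for the 6 libraries together by edgeR 4.0.16 (R 4.3.3), with rows kept by filterByExpr, TMM factors, the quasi-likelihood test and Benjamini-Hochberg adjustment over all 14906 rows tested, calling rows at an adjusted p under 0.05. DESeq2 1.42.0 was an alternative. An exact permutation test of 2 against 2 libraries cannot go below p = 0.333. RSEM lengths gave the length groups, and RefSeq accessions the class (NR only, noncoding; NM only, coding). Row IDs matched 1 RefSeq symbol in 24617 rows, several in 345 and none in 28. Log2 ratios within a replicate number used a prior count of 2, and brain to mEF ratios 1 TPM added. Histone stop codons came from GENCODE vM1.

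Named genes were the 10 largest rises and 10 largest falls among called rows without overlap and with at least 10 CPM in the higher group, the 10 highest in IgG, and the most abundant members of each list. Other genes named for a list, the brain groups and the histone variants were chosen after their values were seen. The members and lists were chosen with earlier results of these data known. Some genes that these rules name are not reported here. The titles number the libraries of each group 1 and 2 without saying what a number shares. Same-numbered libraries deviated together (correlations of 0.311 for IgG and Input, 0.174 for IgG and CHD2, and 0.159 for Input and CHD2). With 2 numbers this does not establish pairing, so the replicate number was a block only in an alternative fit, and ratios within a number are a description.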

Additional observations from a re-analysis of the deposited data

How the results depend on the processing

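The brain group kept its direction under RLE scaling, total-count scaling, a minimum of 10 counts in every library and the loss of each IgG or Input library, and so did the histone list. The calls were less stable. With the IgG and Input libraries alone, 1390 rows were higher and 967 lower. Leaving out 1 library gave 0 to 3194 rows higher and 16 to 3870 lower. DESeq2 called 2548 lower, and no filter on low counts 3234. The cause was not tested. With the replicate block, 2779 rows were higher and 2686 lower, and whether the numbers pair the libraries was not established. The rise with length reversed to -0.216 without Input replicate 1, with values up to 0.442 without another library, and to -0.0601 within replicate number 2. The excess of noncoding over coding rows was 0.219 within replicate number 1, 0.226 to 0.652 without 1 library, and 0.233 among rows with brain and mEF within 2-fold, where the abundance difference was -1.09. This last restriction, the brain and histone medians under each setting and the counts of those lists were added after the data were seen. *Chaserr* was tested on few counts (SE 1.19), and most small RNAs had too few for a test.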
